A study of Mus musculus with 48 samples.

Results

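The urea cycle and amino acid catabolism were followed across diet, dioxin exposure and sex through 31 genes of mouse liver, taken by symbol from the 49315 genes of the expression table. The genes were chosen by pathway, with earlier results of these data known. They comprise 8 genes of the urea cycle and its mitochondrial carriers, 6 enzymes that move nitrogen between amino acids, 5 of tryptophan and tyrosine breakdown, 2 of histidine, 2 of serine and threonine, 3 of proline and ornithine, 1 of lysine, 1 of glyoxylate and 3 of the branched-chain amino acids. Each of the 31 was found, reached 1 TPM in all 48 libraries and is annotated as protein coding in GENCODE M21, on 16 chromosomes of GRCm38.

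Liver poly(A) RNA came from C57BL/6J mice, an inbred strain with no engineered allele named in the labels, in 8 groups of 6 libraries. Males and females received a high-fat diet (HFD) or a low-fat diet (LFD) with a weekly dose of a dioxin mixture or of vehicle for 12 weeks. Each dose of the mixture combined 10 ng/kg TCDD, 80 ng/kg PeCDF and 140 ng/kg PCB126. The groups were HFD mixture, HFD vehicle, LFD mixture and LFD vehicle males, and HFD mixture, HFD vehicle, LFD mixture and LFD vehicle females. The sources used here give neither the age of the animals nor the nature of the vehicle. The labels call the 6 libraries of a group replicates without saying more of the animals, so each p-value covers only the spread among libraries, which may be technical.

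The urea cycle converts ammonia, which is toxic, into urea, and the whole cycle runs in hepatocytes, mostly those near the portal vein. Carbamoyl phosphate synthetase and ornithine transcarbamylase work in mitochondria, and the steps through citrulline and argininosuccinate to arginine and urea follow in the cytosol. Ammonia and aspartate, the nitrogen donors of the cycle, come from transaminases, glutamate dehydrogenase and glutaminase. The liver also breaks down the carbon skeletons of most amino acids for glucose, ketone bodies or energy, and many of these enzymes are known to respond to glucagon, glucocorticoids and protein intake. The branched-chain amino acids differ, since their first transamination takes place mostly outside the liver.

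The values are TPM (transcripts per 1000000), which are corrected for gene length and sum to that number in each library, so levels of different genes can be compared and sequencing depth is unknown. Differences are log2 changes of TPM + 1 from 1 limma model over 15820 genes, and a gene is said to rise or fall where the p adjusted over all of them is under 0.05. Exposure was visible in Cyp1a2, a P450 enzyme induced by dioxins: it ranged 1354 to 2081 TPM in HFD mixture males and 2269.6 to 2833 TPM in HFD mixture females, against 230.3 to 422 TPM in HFD vehicle males and 363 to 480.3 TPM in HFD vehicle females. Transcripts of skeletal muscle stood out in 3 libraries, where 15 muscle genes summed to more than 1000 TPM: replicate 6 of HFD mixture males (22499 TPM), replicate 3 of LFD mixture females (1829 TPM) and replicate 3 of LFD vehicle females (8604 TPM). Calls of the 31 genes that are lost without these 3 are given both ways, as are some of those gained. Replicate 3 of LFD mixture females also held adrenal cortex transcripts, 1642 TPM over 6 genes, where its group otherwise reached 5.13 TPM. Its 4 adipocyte genes summed to 257 TPM, where its group otherwise reached 4.75 TPM. Leaving it out removes these as well. Replicates 4 and 5 of LFD vehicle males held 752 and 354 TPM of the 15 muscle genes and were kept. The hepatocyte markers marked the tissue as labelled, with 9 genes summing to between 57960.2 and 152884 TPM per library.

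The 31 genes spanned a wide range of abundance, led by Ass1 of the urea cycle and by Hpd and Tat of tyrosine breakdown. Averaged over 48 libraries, Ass1 stood at 2869 TPM, Hpd at 2717 TPM, Tat at 2383 TPM, Arg1 at 2319.9 TPM, Cps1 at 1651 TPM and Oat at 1158 TPM. Among the cycle's own enzymes Asl averaged 319 TPM and Otc 218 TPM. At the low end were Nags at 44.7 TPM, which makes the activator that Cps1 requires, and Sdsl, a serine dehydratase-like gene, at 20.8 TPM. Summed, the 31 genes made up 1.48% ± 0.173 of all TPM in HFD mixture males, 1.93% ± 0.0936 in HFD vehicle males, 2.23% ± 0.392 in LFD mixture males and 2.07% ± 0.232 in LFD vehicle males (SD, n = 6 each). In females the share was 1.97% ± 0.151 in HFD mixture, 2.08% ± 0.276 in HFD vehicle, 2.39% ± 0.411 in LFD mixture and 2.71% ± 0.469 in LFD vehicle livers (SD, n = 6 each). The share of HFD mixture males ran from 1.24% to 1.71% and lay wholly under that of HFD vehicle males, 1.81% to 2.06%, and under every other library.

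The genes also differed in how much they varied between libraries of a group. The residual SD on the log2 scale had a median of 0.24 over the 31 genes and of 0.21 over all genes tested. It was smallest for Fah (0.09), the last enzyme of tyrosine breakdown, and for Got2 (0.09), Bckdhb (0.10) and Aldh4a1 (0.11). It was largest for Got1 (0.49), Tat (0.43) and Sds (0.39), all 3 of them cytosolic enzymes.

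Of diet, exposure and sex, diet gave the most calls among these genes, and in both directions. With HFD against LFD, 3 of the 31 rose and 14 fell in mixture males, where 31.7% of all genes tested rose and 6.92% fell. In vehicle males 7 rose and 5 fell, against 25.6% and 5.82% of all genes. In mixture females 5 rose and 10 fell, against 11.5% and 7.74% of all genes, and in vehicle females 8 rose and 10 fell, against 14.4% and 13.5%. The 4 diet comparisons share no library. Cps1, Ass1, Gls2 and Got1 fell in all 4, which is 12.9% of the 31 against 1.27% of all genes, and Bckdhb and Got2 rose in all 4, which is 6.45% against 5.19%. Without a filter on low values Cps1 alone fell in all 4, and in a fit blocked on replicate number Cps1, Gls2 and Got1 did, while Bckdhb and Got2 rose in all 4 under both. Over the 4 comparisons 15 genes fell at least once and never rose, 10 rose at least once and never fell, none did both, and Nags, Slc25a13, Glud1, Prodh, Aass and Bckdha were called in none. In bulk liver, fewer cells of a type and less RNA per cell cannot be told apart.

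A scaling of the libraries by trimmed means shifted the median log2 change of all genes by -0.17 in mixture males and by -0.11 in vehicle males, so the split of calls in males depends on it. After that scaling 2 of the 31 rose and 23 fell in mixture males, and 3 rose and 7 fell in vehicle males, while all genes split into 2317 higher and 2700 lower in mixture males and 2213 higher and 1678 lower in vehicle males (5010 higher and 1095 lower, and 4043 higher and 920 lower, without it). After it Bckdhb rose in all 4 comparisons and Cps1, Ass1, Got1 and Arg1 fell in all 4, whereas Got2 was called in mixture females only (log2 change 0.01 in mixture males and 0.07 in vehicle males) and Gls2 lost its call in vehicle females (limma adjusted p = 0.0612). Without the 3 libraries with muscle transcripts Bckdhb rose in all 4 and Cps1, Ass1 and Got1 fell in all 4, while Got2 lost its call in mixture females (0.14, limma adjusted p = 0.0709).

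**Figure D1:**
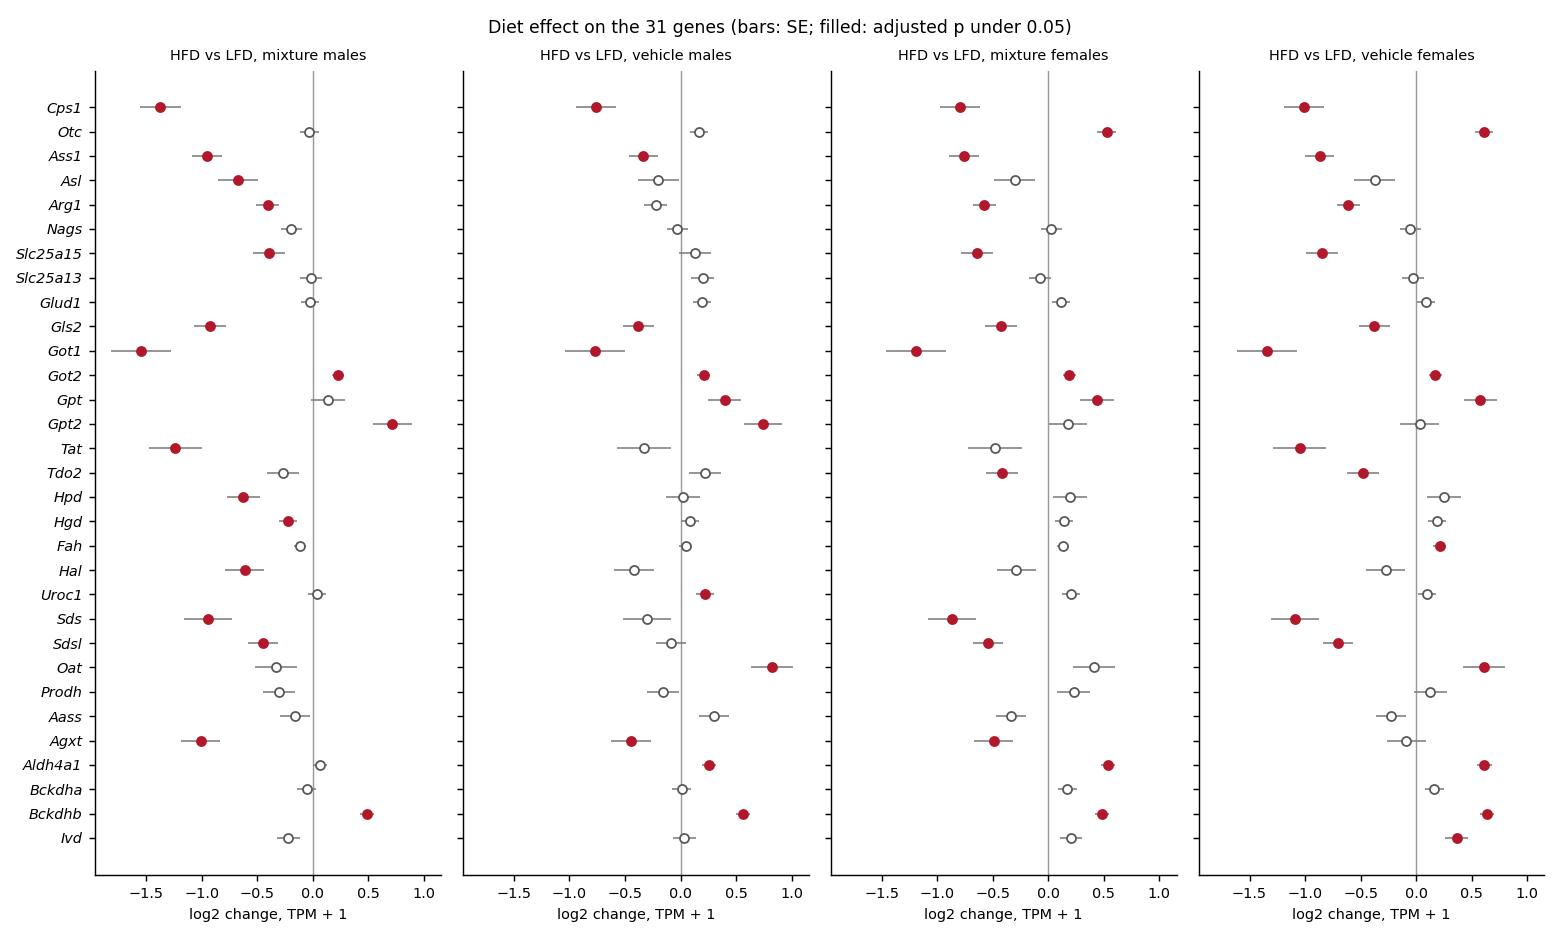
Diet effect on each of the 31 genes, as the log2 change of TPM + 1 (HFD minus LFD, horizontal axis) with its SE, in mixture males, vehicle males, mixture females and vehicle females, with genes ordered by role. Filled points have an adjusted p under 0.05. Cps1, Ass1, Gls2 and Got1 lie left of 0 with filled points in all 4 panels, Bckdhb and Got2 lie right of 0 in all 4, and Otc is filled, at 0.53 and 0.61, in both female panels.

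In the urea cycle, Cps1 and Ass1 fell in all 4 diet comparisons, Arg1 and Slc25a15 in 3, and Otc, whose step lies between Cps1 and Ass1, rose in both female comparisons. Cps1 (ENSMUSG00000025991, chr1:67123026-67231259, plus strand), which fixes ammonia as carbamoyl phosphate in the first step, had a lowest, median and highest level of 595, 672 and 1004 TPM in HFD mixture males, against 1041, 2071 and 2427 TPM in LFD mixture males. In vehicle livers it had 1067, 1171 and 1349.8 TPM in HFD vehicle males, against 1365, 2238 and 2727 TPM in LFD vehicle males. The HFD and LFD libraries of each pair did not overlap. The log2 change of Cps1 was -1.37 in mixture males (SE 0.18, limma adjusted p = 7.53e-08) and -0.76 in vehicle males (SE 0.18, limma adjusted p = 0.00107). In females the levels were 934, 1209 and 1337 TPM in HFD mixture females, against 1533, 1928 and 3328 TPM in LFD mixture females, and 990.5, 1333 and 1630.1 TPM in HFD vehicle females, against 2199, 2646 and 3299.9 TPM in LFD vehicle females, again without overlap. The log2 change there was -0.80 in mixture females (SE 0.18, limma adjusted p = 0.00121) and -1.01 in vehicle females (SE 0.18, limma adjusted p = 3.58e-05).

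Ass1 (ENSMUSG00000076441, chr2:31470207-31520672, plus strand), which joins citrulline and aspartate, showed 1465, 1735 and 2086 TPM in HFD mixture males, against 2689, 3228 and 4632 TPM in LFD mixture males. In vehicle males it had 2297, 2578 and 2660.2 TPM in HFD vehicle males, against 2877, 3039 and 3682 TPM in LFD vehicle males. Levels were 1872, 2015 and 2595 TPM in HFD mixture females, against 2620.4, 3577 and 4754 TPM in LFD mixture females, and 1774, 2152 and 2671 TPM in HFD vehicle females, against 2862, 3961 and 5381 TPM in LFD vehicle females. The HFD libraries lay wholly under the LFD libraries in all 4 pairs, with log2 changes of -0.95, -0.34, -0.76 and -0.87 in mixture males, vehicle males, mixture females and vehicle females. The weakest of these was vehicle males (SE 0.13, limma adjusted p = 0.0477), and the others had limma adjusted p of 1.93e-07, 3.39e-05 and 2.21e-06 in mixture males, mixture females and vehicle females. Arg1, which releases urea from arginine, fell in mixture males (-0.41), mixture females (-0.58) and vehicle females (-0.61), and stood at -0.22 (SE 0.10, limma adjusted p = 0.0995) in vehicle males. Slc25a15, the carrier that exchanges ornithine and citrulline across the inner mitochondrial membrane, fell in the same 3 comparisons (-0.39, -0.64 and -0.85) and stood at 0.13 (SE 0.14) in vehicle males. Asl, which splits argininosuccinate, fell in mixture males (log2 change -0.67, SE 0.18, limma adjusted p = 0.00315) and was at -0.20, -0.30 and -0.37 in vehicle males, mixture females and vehicle females, none of them called.

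Otc (ENSMUSG00000031173, chrX:10252305-10321024, plus strand), the X-linked enzyme that makes citrulline, rose in females on HFD. Levels were 238, 259.6 and 295 TPM in HFD mixture females, against 162, 184 and 193 TPM in LFD mixture females, and 227, 261 and 345 TPM in HFD vehicle females, against 150.3, 176 and 215 TPM in LFD vehicle females. All 6 HFD libraries lay above all 6 LFD libraries in both exposures, and Otc changed by 0.53 in mixture females (SE 0.08, limma adjusted p = 8.45e-06) and 0.61 in vehicle females (SE 0.08, limma adjusted p = 3.11e-07). In males Otc was not called, at -0.03 in mixture males and 0.17 in vehicle males (SE 0.08 each), but scaling by trimmed means put it at -0.25 in mixture males (limma adjusted p = 0.026). The ratio of Ass1 to Otc TPM ran 6.6 to 10.9 in HFD mixture females against 13.6 to 25.9 in LFD mixture females, and 6.48 to 9.81 in HFD vehicle females against 16.3 to 30.6 in LFD vehicle females. In males it ran 7.87 to 9.4 in HFD mixture males against 13.8 to 24.7 in LFD mixture males, and 9.42 to 11.5 in HFD vehicle males against 13.2 to 17 in LFD vehicle males, with no overlap between diets in any of the 4 pairs. Nags and Slc25a13, the aspartate and glutamate carrier citrin, stayed within -0.19 and 0.20 in the 4 diet comparisons and were not called, apart from Nags in mixture males after scaling (-0.41, limma adjusted p = 0.00237).

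**Figure D2:**
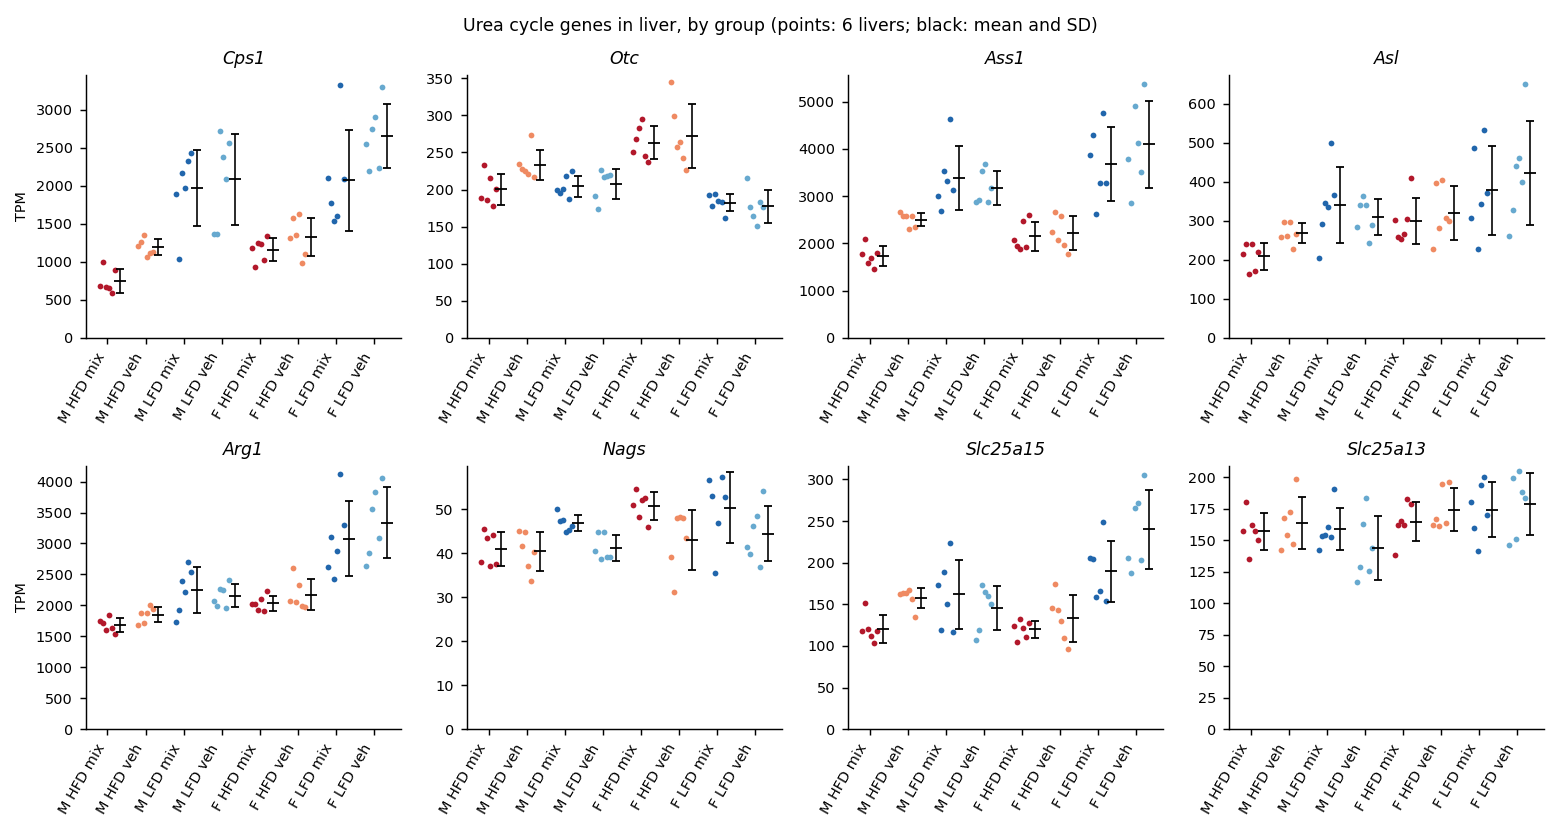
TPM of the 8 urea cycle and carrier genes in every library (points) with the mean and SD of each group of 6 (black), for males (M) and females (F) on HFD or LFD with mixture (mix) or vehicle (veh). Cps1 and Ass1 are lower on HFD than on LFD in each pair of groups, Otc is higher on HFD in both female pairs, and Nags and Slc25a13 overlap between diets.

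Among the enzymes that move nitrogen, the cytosolic form of aspartate transaminase fell in all 4 diet comparisons and the mitochondrial form rose in all 4, the calls of the mitochondrial form being lost under scaling except in mixture females. Got1 (ENSMUSG00000025190, chr19:43499752-43524605, minus strand), the cytosolic form, had 119, 178 and 305 TPM in HFD mixture males, against 375, 466 and 1057 TPM in LFD mixture males. Its log2 change was -1.55 in mixture males (SE 0.27, limma adjusted p = 1.37e-05), -0.77 in vehicle males, -1.19 in mixture females and -1.34 in vehicle females. The groups did not overlap in mixture males and mixture females and overlapped in both vehicle pairs. Got2 (ENSMUSG00000031672, chr8:95864134-95888547, minus strand), the mitochondrial form, had 268, 318 and 329 TPM in HFD mixture males, against 243, 266 and 286 TPM in LFD mixture males. It rose by small amounts, 0.23, 0.21, 0.19 and 0.17 in mixture males, vehicle males, mixture females and vehicle females, with SE 0.06 each and overlapping groups in all 4. The ratio of Got1 to Got2 TPM ran 0.376 to 0.937 in HFD mixture males against 1.47 to 3.7 in LFD mixture males, and 0.644 to 1.36 in HFD mixture females against 1.56 to 3.26 in LFD mixture females. Exons of Got2 overlap those of Gm45760 on the opposite strand, and the sources used here do not say whether the counting used strand. Gm45760 averaged 0.428 TPM over the 48 libraries.

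Gls2 (ENSMUSG00000044005, chr10:128194457-128210004, plus strand), the liver glutaminase, which releases ammonia from glutamine, fell with HFD in all 4 comparisons. Its levels were 116, 147 and 184 TPM in HFD mixture males, against 194, 299 and 324 TPM in LFD mixture males, with no overlap, a difference of -0.92 (SE 0.14, limma adjusted p = 1.3e-06). The other 3 changes were -0.38, -0.42 and -0.38 in vehicle males, mixture females and vehicle females, with overlapping groups. In vehicle females the call was lost without the libraries with muscle transcripts (-0.33, limma adjusted p = 0.0732). Gls2 exons overlap those of Spryd4 on the opposite strand, which averaged 35.6 TPM against 243 TPM for Gls2. Of the alanine transaminases, Gpt2, the mitochondrial form, rose in mixture males (log2 change 0.72, SE 0.17, limma adjusted p = 0.000995) and vehicle males (log2 change 0.74, SE 0.17, limma adjusted p = 0.00089) and was at 0.18 and 0.03 in mixture and vehicle females. Gpt, the cytosolic form, rose in vehicle males (0.40), mixture females (0.44) and vehicle females (0.58), with the calls in vehicle males and mixture females lost under scaling (limma adjusted p = 0.279 and 0.059) and that in mixture females also without the libraries with muscle transcripts (0.30, limma adjusted p = 0.159). Glud1, glutamate dehydrogenase, was not called with diet, at -0.03 to 0.19.

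Tat and Tdo2, the entry enzymes of tyrosine and tryptophan breakdown, each fell in 2 of the 4 diet comparisons. Tat, the hormone-responsive transaminase that starts tyrosine breakdown, had 1423, 1914 and 2886 TPM in HFD vehicle females, against 2921, 4105 and 5418 TPM in LFD vehicle females. It fell in vehicle females (log2 change -1.05, SE 0.24, limma adjusted p = 0.000863) and in mixture males (log2 change -1.24, SE 0.24, limma adjusted p = 6.57e-05), with no overlap in either, and stood at -0.48 in mixture females and -0.33 in vehicle males. Tdo2, which opens the ring of tryptophan, fell in mixture females (-0.42, limma adjusted p = 0.033) and vehicle females (-0.48, limma adjusted p = 0.00936). Hpd and Hgd, which act after Tat, fell in mixture males (-0.62 and -0.22) and were called in no other diet comparison, and the call of Hgd was lost without the libraries with muscle transcripts (-0.19, limma adjusted p = 0.0685). Fah rose in vehicle females (log2 change 0.21, SE 0.06, limma adjusted p = 0.00346).

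Sds and Sdsl, of serine and threonine breakdown, fell in 3 of the 4 diet comparisons. Sds, which turns serine into pyruvate, had 258, 404 and 528 TPM in HFD vehicle females, against 553, 876 and 1169 TPM in LFD vehicle females, without overlap, and fell by 1.09 in vehicle females (SE 0.22, limma adjusted p = 0.000138). It also fell in mixture males (-0.95) and mixture females (-0.87), and Sdsl fell in the same 3 comparisons (-0.45, -0.54 and -0.70). In vehicle males Sds stood at -0.30 and Sdsl at -0.09, neither called. Sds exons overlap Gm15690 and Plbd2 on the opposite strand, genes at 106 and 33.6 TPM on average beside 516 TPM for Sds. Reads from the shared stretches cannot be assigned if the counting ignored strand. The same holds for exons of Nags with Gm11586 (4.40 TPM) and of Bckdha with B3gnt8 (3.52 TPM). Exons of Aldh4a1 overlap Gm21969 (0.574 TPM) on the same strand. Hal, the first enzyme of histidine breakdown, fell in mixture males (log2 change -0.61, SE 0.18, limma adjusted p = 0.00472), and Uroc1, the next, rose in vehicle males (log2 change 0.22, SE 0.08, limma adjusted p = 0.0354). Agxt, which detoxifies glyoxylate with alanine as donor, fell in mixture males (-1.01), vehicle males (-0.45) and mixture females (-0.49), and the last 2 calls were close to the threshold (limma adjusted p = 0.0494 and 0.0448).

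Oat and Aldh4a1, which carry ornithine and proline towards glutamate, rose in 2 and 3 of the 4 diet comparisons. Oat, which converts ornithine to glutamate semialdehyde, had 1163, 1381 and 1791 TPM in HFD vehicle males, against 567, 743 and 1168 TPM in LFD vehicle males, and rose in vehicle males (log2 change 0.82, SE 0.19, limma adjusted p = 0.000754) and vehicle females (log2 change 0.61, SE 0.19, limma adjusted p = 0.0134). Exposed livers did not show a called change, at -0.33 in mixture males and 0.41 in mixture females. Aldh4a1, which oxidises glutamate semialdehyde, had 178, 185 and 206 TPM in HFD vehicle females, against 111, 122 and 137 TPM in LFD vehicle females, and rose in vehicle females (log2 change 0.62, SE 0.06, limma adjusted p = 7.29e-10), mixture females (log2 change 0.54, SE 0.06, limma adjusted p = 2.9e-08) and vehicle males (log2 change 0.26, SE 0.06, limma adjusted p = 0.00151). Prodh, which opens the path from proline, and Aass, the entry enzyme of lysine breakdown, were not called, although Aass was lower in mixture females without the libraries with muscle transcripts (-0.42, limma adjusted p = 0.0316).

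Bckdhb (ENSMUSG00000032263, chr9:83925145-84124240, plus strand), the beta subunit of the E1 component of branched-chain ketoacid dehydrogenase, rose in each diet comparison. Its levels were 120.5, 142 and 154 TPM in HFD mixture males, against 91.2, 98.4 and 113 TPM in LFD mixture males, and 133, 139 and 144 TPM in HFD vehicle males, against 88.7, 93.2 and 103 TPM in LFD vehicle males. In females they were 139.9, 159.9 and 164 TPM in HFD mixture females, against 94.4, 114 and 125 TPM in LFD mixture females, and 146, 153 and 157 TPM in HFD vehicle females, against 84.5, 98.4 and 107 TPM in LFD vehicle females. All 6 HFD libraries lay above all 6 LFD libraries in every pair. The log2 changes were 0.49, 0.56, 0.48 and 0.64 in mixture males, vehicle males, mixture females and vehicle females, with SE 0.06 each and limma adjusted p of 3.52e-08, 2.03e-09, 1.54e-07 and 1.8e-10. Bckdha, the alpha subunit of the same E1 component, stood at -0.05, 0.01, 0.17 and 0.16 and was not called. Ivd, the leucine-pathway dehydrogenase, rose in vehicle females (log2 change 0.37, SE 0.10, limma adjusted p = 0.00511). It was lower in mixture males once the libraries rich in muscle transcripts were left out (-0.32, limma adjusted p = 0.00569).

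Promoters of 4 of the genes that changed the same way in all 4 diet comparisons are shown because these genes moved together or apart: Got1 and Got2 catalyse the same reaction and changed in opposite directions, Ass1 fell and Bckdhb rose. Sequences are the 250 bases before the annotated start from RefSeq on GRCm38.p6, 5′ to 3′ on the gene's strand, and 24 of the 31 genes matched an entry in that table, with Cps1 and Gls2 not among them. The Ass1 and Got2 windows reach past the gene starts of the GENCODE coordinates given above, so part of each lies inside the gene by that annotation. Another RefSeq start of Bckdhb, with its window at chr9:83948531-83948780, is not shown. Capitals mark GCGTG, the core bound by the dioxin receptor AhR with its partner ARNT, read on either strand and so also written CACGC.
Ass1, chr2:31470020-31470269, plus strand: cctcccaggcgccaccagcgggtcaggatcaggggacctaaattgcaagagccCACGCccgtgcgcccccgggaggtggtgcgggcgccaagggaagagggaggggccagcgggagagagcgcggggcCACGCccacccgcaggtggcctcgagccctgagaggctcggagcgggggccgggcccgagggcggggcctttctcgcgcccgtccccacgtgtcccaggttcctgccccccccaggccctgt
Got1, chr19:43524606-43524855, minus strand: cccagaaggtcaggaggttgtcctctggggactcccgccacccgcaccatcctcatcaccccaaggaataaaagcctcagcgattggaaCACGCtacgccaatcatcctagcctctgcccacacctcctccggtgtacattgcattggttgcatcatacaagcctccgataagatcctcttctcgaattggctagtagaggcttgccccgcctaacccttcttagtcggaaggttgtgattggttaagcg
Got2, chr8:95888402-95888651, minus strand: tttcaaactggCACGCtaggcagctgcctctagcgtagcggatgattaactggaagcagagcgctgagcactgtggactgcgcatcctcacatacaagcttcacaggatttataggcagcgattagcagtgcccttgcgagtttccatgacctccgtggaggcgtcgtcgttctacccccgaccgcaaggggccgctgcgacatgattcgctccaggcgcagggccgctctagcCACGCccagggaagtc
Bckdhb, chr9:83924887-83925136, plus strand: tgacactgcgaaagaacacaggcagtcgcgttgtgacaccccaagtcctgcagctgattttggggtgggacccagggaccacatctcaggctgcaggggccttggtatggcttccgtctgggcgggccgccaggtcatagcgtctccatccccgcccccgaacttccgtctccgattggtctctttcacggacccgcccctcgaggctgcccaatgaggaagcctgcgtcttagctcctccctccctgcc
Ass1 and Got2 each hold 2 GCGTG matches, Got1 holds 1 and Bckdhb none. Over all 32851 annotated starts 28.2% hold GCGTG in this window, and of the 26 starts of the matched genes 12 do. The letters TGACG, from the cyclic AMP response element, searched on both strands, stands in 17.8% of all starts and in 2 of the 26. The C/EBP-type letters TTGCNNAA, on both strands, stand in 9.56% and in 3 of the 26, and TATAAA, on the gene's strand only, in 7.59% and in 1 of the 26. None of these other motifs occurs in the 4 windows shown. A match describes letters in a window and not a bound site.

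The dioxin mixture moved none of the 31 genes past the threshold in any of the 4 groups of mice, nor in their mean. Of all genes tested limma called 0.0948% in HFD males, 0.0379% in LFD males, 0.0126% in HFD females, 0.0379% in LFD females and 0.0948% in the mean, so few calls were made among all genes. In HFD males all genes split into 11 higher and 4 lower, and into 9 and 9 after scaling by trimmed means. The mixture comparisons use the same libraries as the diet comparisons. At an unadjusted p under 0.05 the 31 genes were uneven. In HFD males 14 were lower with mixture than with vehicle and none was higher, against 2.72% and 6.67% of all genes, and 27 of the 31 log2 changes were below 0 with a median of -0.23 (0.03 over all genes). In LFD males 1 gene, Oat (0.50), was past it and higher, against 3.45% of all genes. In HFD females 1 gene, Nags (0.25), was higher, against 3.46%. In LFD females 2 were higher, against 6.62% (Bckdhb at 0.18 and Fah at 0.13), and 3 lower, against 2.88% (Tat at -0.83, Slc25a15 at -0.34 and Cps1 at -0.40). This balance depends on the libraries left out for muscle transcripts: without them 6 were higher and 1 lower, against 5.41% and 4.72% of all genes, and 13 of the 31 changes were below 0 where 18 were with all libraries. In the mean of the 4 strata 5 were lower at that level, against 2.36% of all genes (Tat at -0.46, Cps1 at -0.34, Slc25a15 at -0.18, Ass1 at -0.16 and Hgd at -0.09), and 2 higher, against 9.34% (Nags at 0.16 and Bckdhb at 0.08), and without those libraries 3 were lower and 2 higher, against 2.97% and 9.75%. The direction in which all genes leaned depended on scaling. After scaling by trimmed means 17 of the 31 were lower and 0 higher in HFD males, against 5.80% and 3.57% of all genes. All 31 changes there were then below 0, with a median of -0.29 (-0.02 over all genes). Under it 3 were lower and 1 higher in LFD females, against 4.93% and 4.35%. In the mean 6 were then lower and 1 higher, against 4.99% and 4.75%.

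**Figure D3:**
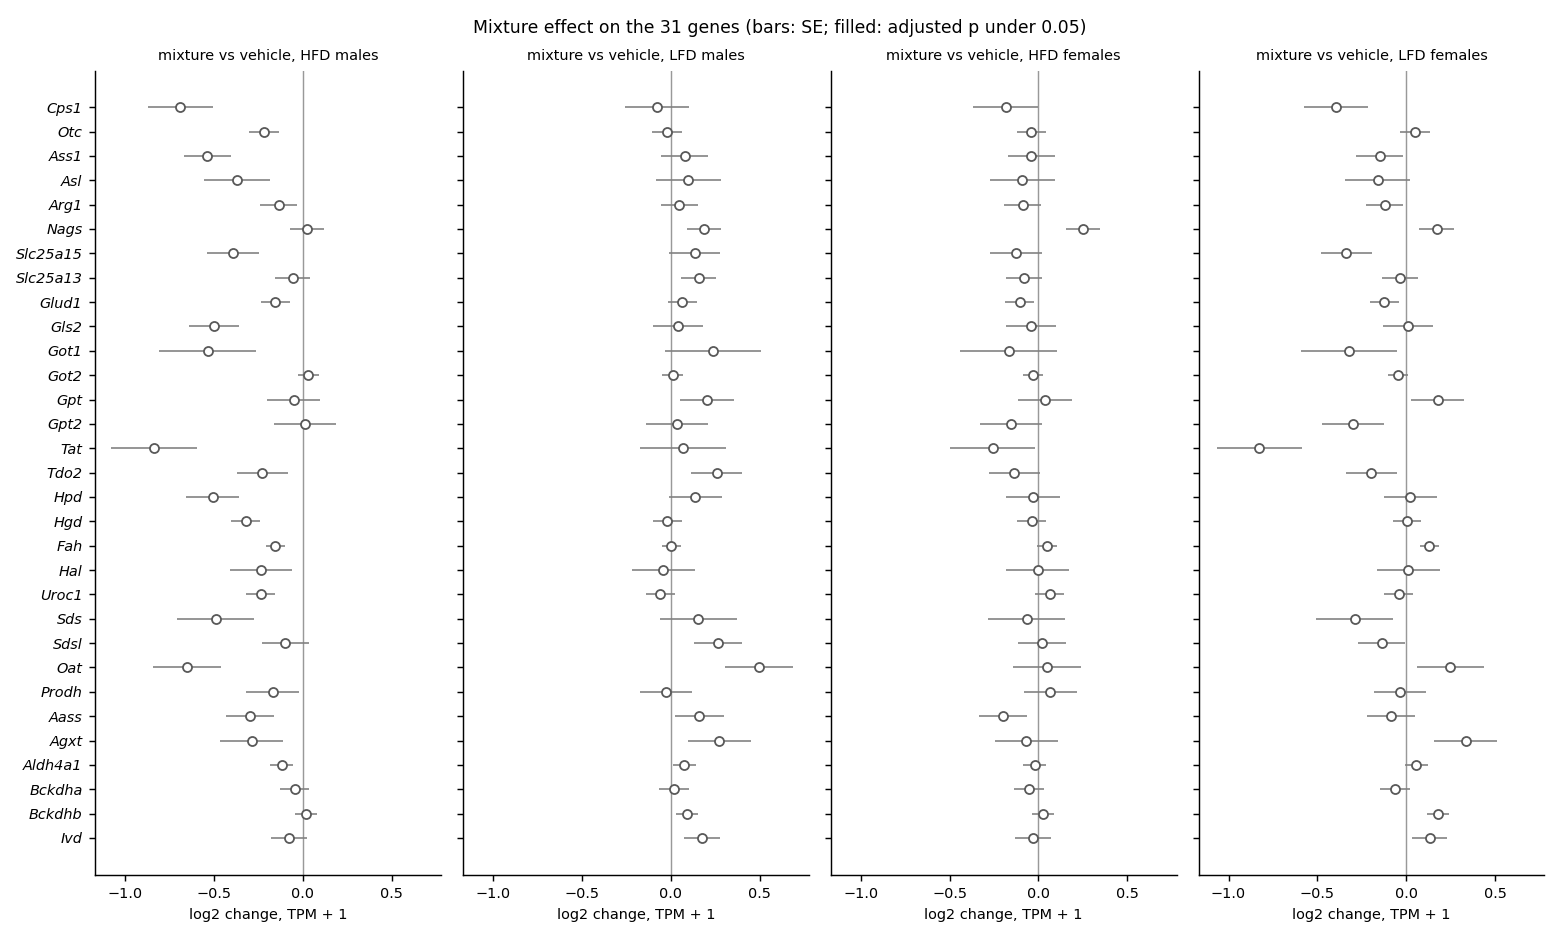
Mixture effect on each of the 31 genes, as the log2 change of TPM + 1 (mixture minus vehicle, horizontal axis) with its SE, in HFD males, LFD males, HFD females and LFD females. No point is filled, as none had an adjusted p under 0.05. In HFD males 27 of the 31 points lie left of 0, and in LFD males 25 of the 31 lie right of 0.

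In HFD males 5 of the 8 urea cycle genes were among the 14. Ass1 had 1465, 1735 and 2086 TPM in HFD mixture males, against 2297, 2578 and 2660.2 TPM in HFD vehicle males, with no overlap (log2 change -0.54, SE 0.13, limma adjusted p = 0.0861). When the libraries rich in muscle transcripts were left out, replicate 6 of HFD mixture males among them, Ass1 passed the threshold at -0.55 (limma adjusted p = 0.0489). Cps1 had 595, 672 and 1004 TPM in HFD mixture males, against 1067, 1171 and 1349.8 TPM in HFD vehicle males, also without overlap (log2 change -0.69, SE 0.18, limma adjusted p = 0.14). Otc, Slc25a15 and Asl were the other 3, at -0.22, -0.39 and -0.37, and Arg1 at -0.14 was not. Gls2 (116, 147 and 184 TPM in HFD mixture males, against 187, 205 and 239 TPM in HFD vehicle males) and Sds (257, 294 and 335 TPM in HFD mixture males, against 344, 411 and 489.5 TPM in HFD vehicle males) also lay wholly under the vehicle livers, at -0.50 and -0.49 (limma adjusted p = 0.188 and 0.473). Of all genes 0.247% lay wholly under the vehicle livers in this comparison. The aromatic enzymes Tat (-0.84), Hpd (-0.51), Hgd (-0.32) and Fah (-0.15), with Oat (-0.65), Uroc1 (-0.24) and Aass (-0.30), complete the 14.

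**Figure D4:**
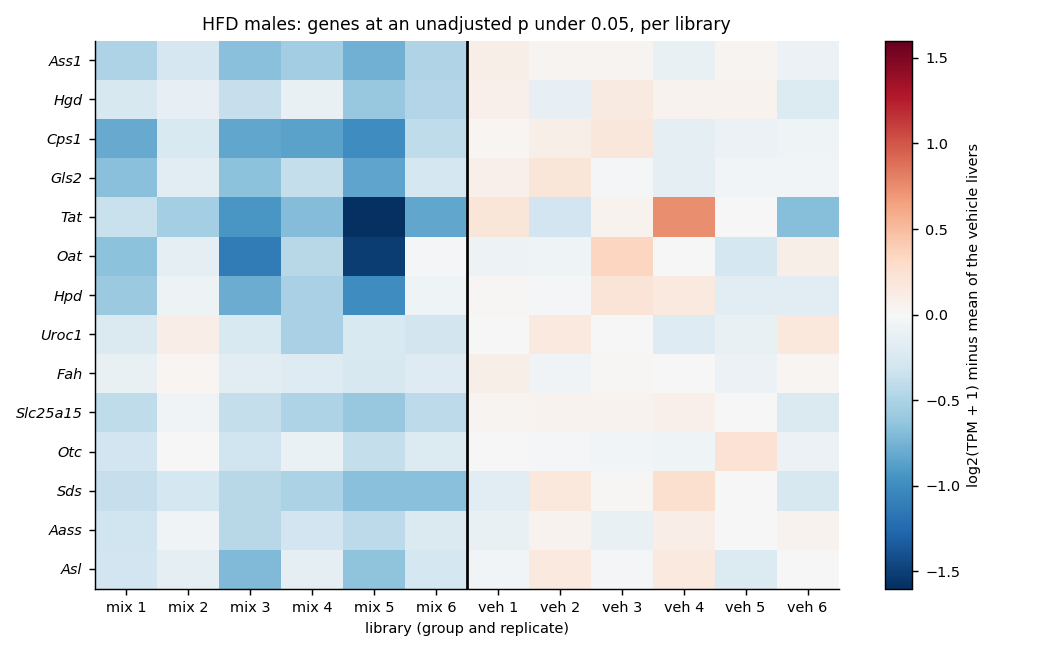
Difference of each HFD male library from the mean of the HFD vehicle males, in log2(TPM + 1), for the 14 genes at an unadjusted p under 0.05, with the 6 mixture (mix) libraries left of the black line and the 6 vehicle (veh) libraries right of it. Blue is lower and red higher. All 14 genes lie below the vehicle mean in mixture replicates 1, 3, 4, 5 and 6, and 11 of the 14 do in mixture replicate 2.

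The libraries shared this pattern unevenly. Mixture replicate 5 stood lowest, with a median difference of -0.66 from the vehicle mean over the 14 genes, and mixture replicate 2 highest at -0.13, while the medians of the vehicle replicates ran from -0.08 to 0.05. The genes were picked on these libraries, so this describes them and is no test. No cell type marker was called between these groups with all libraries, and without the libraries with muscle transcripts Spp1, a cholangiocyte marker (1.26, limma adjusted p = 0.0124), and Trem2, a macrophage marker (0.78, limma adjusted p = 0.0443), were higher. Trem2 was the only 1 of 8 macrophage markers called. The 8 summed to 186 to 311 TPM (median 240) in HFD mixture males and 208 to 315 TPM (median 227) in HFD vehicle males. The summed TPM of 8 stellate cell markers was 293 to 732 TPM (median 443) in HFD mixture males and 253 to 320.3 TPM (median 292) in HFD vehicle males, and 5 of the 8 were higher at an unadjusted p under 0.05. For 7 cholangiocyte markers, of which 5 were tested and 3 were higher at that level, the sums were 74.3 to 532 TPM (median 252) in HFD mixture males and 85.3 to 142 TPM (median 113) in HFD vehicle males. For 9 hepatocyte markers, of which 3 were lower at that level, they were 57960.2 to 84769 TPM (median 76844.5) in HFD mixture males and 71955 to 84263 TPM (median 77229.9) in HFD vehicle males. For 15 muscle markers they were 25.4 to 22499 TPM in HFD mixture males, of which the next highest library held 70.3 TPM, and 17.9 to 49.4 TPM in HFD vehicle males. Without the library rich in muscle transcripts the highest stellate cell sum of HFD mixture males was 600 TPM. Their lowest cholangiocyte and hepatocyte sums were then 135.7 and 69792 TPM. The part of these markers in the result was not tested.

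Whether the mixture acted differently on the 2 diets was tested directly. In males 30 of the 31 differences (effect on HFD minus effect on LFD) were below 0, with a median of -0.26 beside 0.03 over all genes, and 14 were lower and none higher at an unadjusted p under 0.05, against 2.88% and 4.44% of all genes. None of the 31 passed after adjustment, where 0.00632% of all genes did. Oat was closest: it had 494, 968 and 1383 TPM in HFD mixture males, against 1163, 1381 and 1791 TPM in HFD vehicle males, and 744, 1250.1 and 1425 TPM in LFD mixture males, against 567, 743 and 1168 TPM in LFD vehicle males. The mixture livers had the lower median on HFD and the higher one on LFD, with overlapping groups in both, and the effects differed by -1.15 (SE 0.27, limma adjusted p = 0.136). With the libraries rich in muscle transcripts left out the difference was -1.28 (limma adjusted p = 0.0403). After scaling by trimmed means 19 of the 31 differences in males were lower and 0 higher at an unadjusted p under 0.05. The shares of all genes were then 5.86% and 3.03%, and the medians -0.34 over the 31 and -0.04 over all genes. In females none of the 31 was called by limma or past an unadjusted p of 0.05, against 4.64% of all genes for the second, the median difference was 0.01, and 0.00632% of all genes were called. Leaving out the libraries rich in muscle transcripts, 2 were lower at that level, against 1.86% of all genes, 22 of the 31 differences were below 0, and the median was -0.06 beside 0.04 over all genes.

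Between the sexes 11 of the 31 genes were called on LFD and 4 on HFD. In LFD vehicle livers 2 of the 31 were higher and 9 lower in males than in females, where 6.61% of all genes were higher and 17.1% lower (23.7% in either direction). Arg1 had 1962, 2157 and 2411 TPM in LFD vehicle males, against 2631, 3325 and 4055 TPM in LFD vehicle females, without overlap (log2 change -0.61, SE 0.10, limma adjusted p = 1.21e-05). Slc25a15 had 107, 155 and 173 TPM in LFD vehicle males, against 188, 236 and 306 TPM in LFD vehicle females, also without overlap (log2 change -0.71, SE 0.14, limma adjusted p = 0.000192). Glud1 lay wholly under the female livers too, at -0.32, and 6.84% of all genes did. The other 6 that were lower in males were Aass (-0.55), Sdsl (-0.49), Uroc1 (-0.29), Slc25a13 (-0.32), Sds (-0.69) and Got1 (-0.74), and Otc (0.23) and Hgd (0.22) were higher. After scaling by trimmed means 4 of the 31 were higher and 4 lower, with all genes at 1694 higher and 1678 lower (1045 and 2707 without it), and Arg1, Slc25a15, Aass, Sdsl, Otc and Hgd kept the side they had. Without the libraries with muscle transcripts Otc (0.21) and Got1 (-0.62) were not called (limma adjusted p = 0.0867 and 0.103). Of the cell type markers 5 of 6 endothelial and 5 of 8 macrophage genes were lower in males on LFD, and of 9 hepatocyte genes 1 was higher and 4 lower (2 and 2 after scaling), and their part in the result was not tested.

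In HFD vehicle livers none of those 11 was called. Hpd, Agxt, Aldh4a1 and Ivd were lower in males, where 3.53% of all genes were lower and 8.26% higher, and each lay wholly under the female livers, as did Bckdhb, which was not called, and 1.93% of all genes. Hpd had 2023, 2292 and 2666 TPM in HFD vehicle males, against 2876, 3471 and 4639 TPM in HFD vehicle females (log2 change -0.59, SE 0.15, limma adjusted p = 0.00579). Agxt stood at -0.70, Aldh4a1 at -0.25 and Ivd at -0.35 (limma adjusted p = 0.00582, 0.00654 and 0.017). Arg1 and Slc25a15, the clearest on LFD, were at -0.23 and 0.27 on HFD and not called.

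The effect of diet in vehicle livers differed between males and females for 8 of the 31 genes, where 14.8% of all genes had the higher and 3.47% the lower difference (effect in males minus effect in females). Slc25a15 differed most: diet moved it by 0.13 in males and -0.85 in females, a difference of 0.98 (SE 0.20, limma adjusted p = 0.000627). Its levels were 134, 163 and 167 TPM in HFD vehicle males, against 107, 155 and 173 TPM in LFD vehicle males, and 96.3, 137 and 174 TPM in HFD vehicle females, against 188, 236 and 306 TPM in LFD vehicle females. Female livers on LFD thus stood above the other 3 groups. Tdo2 (0.70), Gpt2 (0.71), Sdsl (0.62), Ass1 (0.53) and Aass (0.53) also had a positive difference. Otc (-0.44, SE 0.12, limma adjusted p = 0.00676) and Aldh4a1 (-0.36, SE 0.09, limma adjusted p = 0.00461) had a negative one, with the larger diet effect in females. Scaling by trimmed means, which shifted the median of all genes by -0.11 here, left Slc25a15, Otc and Aldh4a1 called, with values of 0.85, -0.58 and -0.49, and the other 5 were not called under it. Over all genes that scaling gave 1191 higher and 907 lower (2338 and 549 without it). Without the libraries with muscle transcripts Ass1 was not called (0.47, limma adjusted p = 0.0595) and Ivd was (-0.36, limma adjusted p = 0.0401). In the same comparison 6 of 8 stellate cell and 5 of 6 endothelial markers had a positive difference, and their part in the result was not tested.

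**Figure D5:**
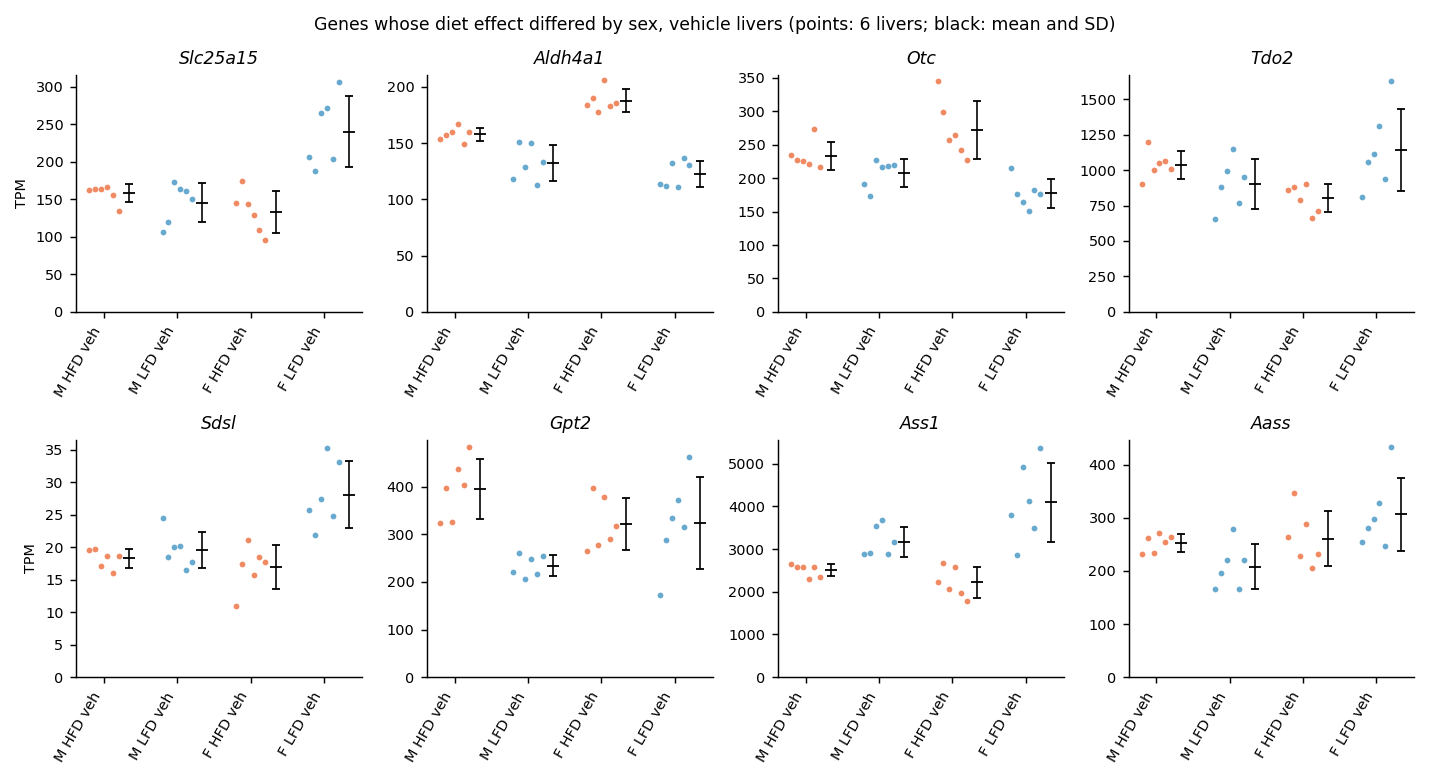
TPM of the 8 genes whose diet effect differed between the sexes, in each vehicle library (points) with the mean and SD of each group of 6 (black), for males (M) and females (F) on HFD or LFD. Slc25a15 is highest in LFD females and overlaps between diets in males, and Otc and Aldh4a1 are higher on HFD without overlap in females.

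The other enzymes of amino acid breakdown, a list of 45 genes of which 43 were tested, had 15 higher and 14 lower on HFD in mixture males, 17 and 5 in vehicle males, 16 and 5 in mixture females and 20 and 5 in vehicle females. Of all genes 31.7% rose and 6.92% fell in mixture males, 25.6% and 5.82% in vehicle males, 11.5% and 7.74% in mixture females and 14.4% and 13.5% in vehicle females, and the counts of the next 3 lists stand beside the same shares. After scaling by trimmed means 5 were higher and 20 lower in mixture males and 12 higher and 10 lower in vehicle males. Pccb, Mccc1, Mccc2 and Hibadh belong to the later steps of branched-chain breakdown and Gcdh acts on lysine and tryptophan carbon. Among the 8 with the smallest p in vehicle males were Pccb (0.37), Hibadh (0.48), Gcdh (0.48), Mccc2 (0.35) and Mccc1 (0.38), all higher, with Gcat (-0.77) and Acmsd (-1.47) lower. In vehicle females the 8 were Hibadh (0.68), Gcdh (0.70), Mccc2 (0.51), Gstz1 (0.46) and Pccb (0.35), with Slc25a22 (-1.29), Gcat (-0.62) and Acmsd (-1.68) lower, and the same 8 led in mixture females, at 0.62, 0.50, 0.37, 0.35, 0.32, -0.98, -0.50 and -1.45. In mixture males Ddo (0.68), Hibch (0.47) and Dld (0.48) rose and Gcat (-0.73), Acmsd (-1.57) and Haao (-0.45) fell. Gcat takes part in threonine breakdown and Acmsd diverts tryptophan carbon away from NAD synthesis.

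Amino acid transporters of the plasma membrane had more falls than rises in 3 of the 4 diet comparisons. Of 17 tested of 21 listed, 3 rose and 10 fell in mixture males, 2 and 5 in vehicle males, 3 and 2 in mixture females and 0 and 4 in vehicle females, and after scaling 2 rose and 11 fell in mixture males and 2 and 6 in vehicle males. Slc3a1, a subunit of the transporter of cystine and basic amino acids, fell in all 4 (-1.15, -1.12, -1.35 and -1.66 in mixture males, vehicle males, mixture females and vehicle females). Slc38a3, a glutamine transporter of hepatocytes, fell in mixture males (-0.66) and vehicle males (-0.51) and rose in mixture females (0.31). Others among the 8 with the smallest p in mixture males were Slc6a12 (-0.45), Slc43a1 (-1.28), Slc7a2 (-1.13), Slc38a2 (-1.32) and Slc1a2 (-0.64), all lower, and Slc7a8 (0.91), higher. Further calls were Slc3a2 (0.33), Slc1a4 (0.71), Slc6a12 (-0.40), Slc43a1 (-1.06) and Slc7a5 (-0.36) in vehicle males, Slc7a8 (0.58), Slc36a1 (0.35) and Slc43a1 (-0.78) in mixture females, and Slc43a2 (-0.56), Slc6a12 (-0.26) and Slc16a10 (-0.32) in vehicle females. Of 7 synthesis enzymes tested of 9 listed, Asns, which makes asparagine, fell and Glul, which makes glutamine in pericentral hepatocytes, rose in mixture males (-1.16 and 0.41) and vehicle males (-1.35 and 0.46). Under scaling Glul lost its call in mixture males (0.19, limma adjusted p = 0.215). Psph fell in vehicle males (-0.37), where Psat1 (-0.43) and Aldh18a1 (-0.48) passed the threshold under scaling or without the libraries with muscle transcripts, and Aldh18a1 fell in vehicle females (-0.56), with none called in mixture females (1 lower under scaling; 0 higher and 1 lower at an unadjusted p under 0.05).

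Of 17 regulators of these pathways, 1 rose and 7 fell with HFD in mixture males, 2 and 3 in vehicle males, 0 and 4 in mixture females and 5 and 4 in vehicle females. After scaling 1 rose and 10 fell in mixture males and 1 and 6 in vehicle males. Hnf4a, a nuclear receptor of hepatocyte genes that is also on the hepatocyte marker list, fell in all 4 (-0.59, -0.33, -0.47 and -0.67 in mixture males, vehicle males, mixture females and vehicle females). Klf15, a factor that induces amino acid catabolism during fasting, fell in mixture males (-0.56) and vehicle females (-0.43). Ppargc1a, a coactivator of the fasting response, fell in mixture females (-0.67) and vehicle females (-0.90). Cebpa fell in vehicle males (-0.36) and rose in vehicle females (0.30), a difference between the sexes of -0.65 (limma adjusted p = 0.0015). Others among the 8 with the smallest p were Foxa1 (-0.52), Sirt3 (-0.19), Foxa2 (-0.56), Crtc2 (-0.19), Insr (-0.21) and Sirt5 (0.62) in mixture males, Foxo1 (0.56), Ppara (0.49) and Crtc2 (-0.23) in vehicle males, Crtc2 (-0.26) and Insr (-0.26) in mixture females, and Gcgr (0.31), Sirt3 (0.22), Nr3c1 (0.26) and Insr (-0.27) in vehicle females. With mixture none of the genes of these 4 lists was called by limma in any stratum, apart from Haao in HFD males under scaling by trimmed means (-0.35, limma adjusted p = 0.0427). At an unadjusted p under 0.05 in HFD males 12 of the 43 other enzymes were lower and 1 higher, 5 of the 17 transporters were lower and 0 higher, 0 of the 7 synthesis enzymes were lower and 0 higher, and 3 of the 17 regulators were lower and 0 higher, where 2.72% of all genes were lower and 6.67% higher. Those nearest to the threshold were Haao (-0.29, limma adjusted p = 0.0534) and Slc38a3 (-0.36, limma adjusted p = 0.0886), both in HFD males.

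Cell type markers moved with diet in the same livers. Of all genes 31.7% rose and 6.92% fell in mixture males, and 25.6% and 5.82% in vehicle males. In females the shares were 11.5% and 7.74% with mixture and 14.4% and 13.5% with vehicle. Of 9 hepatocyte markers tested, 6 fell in each of the 4 diet comparisons, and their summed TPM was 57960.2 to 84769 TPM in HFD mixture males against 95673 to 109640.0 TPM in LFD mixture males, and 83689 to 97058 TPM in HFD vehicle females against 125071 to 152884 TPM in LFD vehicle females. Without the libraries with muscle transcripts the lowest sums were 69792 TPM in HFD mixture males and 131911 TPM in LFD vehicle females. Of 8 stellate cell markers 7 rose in mixture males, 6 in vehicle males, 2 in mixture females and 0 in vehicle females, where 1 fell, with sums of 253 to 320.3 TPM in HFD vehicle males against 137 to 181 TPM in LFD vehicle males. Of 8 macrophage markers 6 rose in mixture males, 4 in vehicle males, 3 in mixture females and 1 in vehicle females. Of 5 cholangiocyte markers tested 3 rose in mixture males, 1 in vehicle males and 1 in mixture females, and 1 fell in vehicle females. After scaling by trimmed means 8 hepatocyte markers fell in mixture males and 7 in vehicle males. Stellate cell, macrophage and cholangiocyte markers then had 6, 5 and 2 higher in mixture males and 6, 3 and 0 in vehicle males. Of 6 endothelial markers 2 rose and 1 fell in mixture males, 2 rose and 0 fell in vehicle males, 0 rose and 2 fell in mixture females, and all 6 fell in vehicle females (5 without the libraries with muscle transcripts). The 4 adipocyte markers summed to 27.6 to 331 TPM in HFD vehicle males against 0.454 to 16.1 TPM in LFD vehicle males. Each defining marker of these lists was above 0 in at least 1 library of every group, apart from 1 adipocyte marker at 0 in HFD vehicle males and 1 in HFD mixture females. Their part in the diet results was not tested.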

How the data were processed

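Poly(A) RNA of liver was sequenced in 48 libraries after extraction with the RNeasy plus mini kit, per the labels' protocols. The deposited values are TPM per gene, made by the authors, in 1 table of 49315 genes. FastQC, Trimmomatic 0.36, STAR 2.5.2b, DESeq2 and GRCm38 are named in the submitters' processing notes without role or order. The sources used here do not name the counting tool, its annotation or its use of strand. TPM keeps no depth, so the depth per library is unknown, no counting intervals are given, and no count test was run.

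Columns were matched to samples by their library names in the labels. The fit took the 15820 genes that reached 1 TPM in 6 or more libraries. limma 3.58.1 in R 4.3.3 was fitted to log2(TPM + 1) with 8 group means, an intensity trend and 40 residual degrees of freedom, with Benjamini-Hochberg adjustment inside each of 14 comparisons. The fit was tested on simulated data first. A fold on this scale understates the change of low genes. Alternatives were a scaling of TPM by trimmed means (30% and 5% trimmed), no filter, a pseudocount of 0.1, the replicate number as a block, leaving out the 3 libraries with muscle transcripts (15 muscle genes summing to more than 1000 TPM), and fitting only the groups compared. The highest correlation between any 2 libraries was 0.983, so none was counted as a repeat.

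The genes, lists, rules and tests were chosen with earlier results of these data known. Every called gene of the 31 is named. Of each supporting list all called genes up to 8 by smallest p are named, and otherwise the 2 with the smallest p, apart from a few genes that are not reported here. Coordinates are from GENCODE M21 and promoters from the RefSeq table on GRCm38.p6. Of 10 listed hepatocyte markers 9 were matched by symbol.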

Additional observations from a re-analysis of the deposited data

Results flagged for a closer look

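Single libraries stood apart from the other 5 of their group for 20 of 248 combinations of gene and group, judged by the gap to the nearest library over the range of the group. Chance gives about 1 such library in 20 groups. Replicate 5 of LFD mixture males accounted for 5 of them and was the highest of its group in each, with Gpt2 at 373 TPM, Hpd at 3352 TPM, Fah at 702 TPM, Sds at 1196 TPM and Ivd at 112 TPM. Other high libraries were Cps1 at 3328 TPM in replicate 5 of LFD mixture females, Asl at 409 TPM in replicate 6 of HFD mixture females, Otc at 274 TPM in replicate 5 of HFD vehicle males, Slc25a15 at 152 TPM in replicate 2 of HFD mixture males, Slc25a13 at 191 TPM in replicate 6 of LFD mixture males and Tat at 3789.7 TPM in replicate 3 of LFD vehicle males. Hpd at 4512 TPM and Uroc1 at 573 TPM stood high in replicate 6 of LFD vehicle females, as did Ivd at 136 TPM in replicate 4 of HFD vehicle females.

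Low libraries were Got2 at 268 TPM in replicate 4 and Sdsl at 12.2 TPM in replicate 6 of HFD mixture males, Gls2 at 194 TPM in replicate 2 of LFD mixture males, Slc25a15 at 134 TPM in replicate 6 of HFD vehicle males, and Bckdha at 95.2 TPM in replicate 5 of HFD vehicle males and at 91.0 TPM in replicate 1 of HFD vehicle females. Replicate 6 of HFD mixture males, the library low in Sdsl, also held the most muscle transcripts.

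The effect of diet in vehicle livers differed between males and females (males minus females, tested as an interaction in limma) for Slc25a15 by 0.98, Gpt2 by 0.71, Tdo2 by 0.70, Sdsl by 0.62, Ass1 by 0.53, Aass by 0.53, Otc by -0.44 and Aldh4a1 by -0.36 on the log2 scale. Of all genes tested 14.8% had the higher and 3.47% the lower difference. Of these genes only Slc25a15, Otc and Aldh4a1 stayed called under scaling by trimmed means. Ass1 was also not called without the libraries with muscle transcripts.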

How the results depend on the processing

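The changes of the 31 genes at an unadjusted p under 0.05, 161 in number and called or not, were followed. None of them reversed direction under any of the 6 alternatives. Without the 3 libraries with muscle transcripts 1 gene was called for the mixture in HFD males (Ass1) and 1 for the difference of the mixture effect between diets in males (Oat), against 0 of each with all libraries. Without a filter on low values 6 genes were called for diet in vehicle males, against 12, and 5 for the difference of the diet effect between the sexes, against 8. Scaling by trimmed means gave 4 for that difference, 3 of them shared (Otc, Slc25a15 and Aldh4a1). A pseudocount of 0.1 left each of the 161 as it was, called or not called. With the replicate number as a block 155 of the 161 stayed as they were, called or not called. The counts of called genes were 10 against 12 for diet in vehicle males, 14 against 15 for diet in mixture females and 10 against 11 for sex on LFD. Libraries that share a number had a median correlation of 0.013 in their deviations over 168 pairs, against -0.005 over 840 pairs of other numbers. Of 48 libraries 14 correlated best with a library of their own number in another group. These values do not settle whether the numbers pair the libraries, as the labels do not say what the numbers stand for. The library names hold other numbers, some of them shared between the diets of a sex and exposure. Pairing by those was not tested. The cause of these changes was not tested. TPM gives no depth, so the precision of low genes is unknown, and the labels do not say whether diets or sexes were handled as separate cohorts.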
